A study of Rattus norvegicus with 24 samples.

Results

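The genes examined here are the potassium channel genes of the rat, taken as every reference gene whose symbol begins with Kcn. Of the 32883 reference genes in the tables, 91 were analysed, and 1 further gene with such a symbol is not reported here. The rule uses the symbol alone and no measured value. They carry 19 different letters after Kcn, and the largest of these groups are Kcnj and Kcnk with 14 members each and Kcna with 11.

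The tissue was the frontal cortex of adult male Sprague-Dawley rats exposed to a tungsten aerosol by inhalation and sampled 24 h afterwards. The sources used here give neither the length of exposure nor an exact age. Control rats were labelled 0 mg/m3, Low rats 5 mg/m3 and High rats 80 mg/m3, with 8 rats in each group and 1 library per rat. Polyadenylated RNA was turned into stranded libraries, and StringTie, which assembles aligned reads into transcripts, gave the coverage of each gene, that is, its mean read depth per base. Libraries are called here by their number, 49 to 56 for Control, 57 to 64 for Low and 65 to 72 for High, and the study used the 3 groups to rank ways of processing RNA-Seq data where the response is weak. No label gives an exposure day or a batch.

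Potassium channels let potassium ions leave a neuron and so return its membrane to rest after an action potential, set its resting potential and limit repetitive firing. Voltage-gated Kv channels open on depolarization, calcium-activated BK and SK channels open when calcium enters, inward rectifiers (Kir) and two-pore-domain channels (K2P) pass current near rest, and many of them need auxiliary subunits that change their gating or bring them to the membrane. In cortex, astrocytes also use an inward rectifier, Kcnj10, to take up potassium released by firing neurons.

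Coverage was divided by the sum over all reference genes of the library and multiplied by 1000000, and is called scaled coverage below. Because it is a depth per base, levels of different genes can be set side by side, but for some members the level depends on the deposited column, as described below. In each library 84 to 89 of the 91 members were above 0. The 15644 genes whose mean over the 24 libraries was 1 or more were tested with limma on log2(scaled coverage + 1), and 72 members were among them. The remaining 19 members had means of at most 0.658 by coverage, and 13 of them were at 0 in at least 1 library. Of the 3 members at 0 in over 12 libraries, Kcna10 encodes a Kv1-type channel, Kcne1 an auxiliary subunit and Kcnj1 a renal inward rectifier.

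Several facts about the libraries touch the results below. The Low tables list only reference genes, whereas the Control and High tables also list loci that StringTie assembled anew in every rat, and such loci overlap 74 to 79 members on the same strand in every Control and High library. How the tables were made therefore cannot be told apart from the Low group. Control library 56 stood apart in this, with 159573 assembled loci, against 46334 to 66427 in the other Control libraries. An assembled locus repeated the coverage of 58 members in library 56, and of 21 to 31 members in the other Control libraries. Summed over the 91 members, scaled coverage ran from 1350 in Control library 49 to 2440 in Low library 62. Libraries 49 and 57 had the lowest value of their group for 49.4% and 36.6% of all 15644 tested genes, and for 42 and 33 of the 72 tested members. High library 67 was the lowest of its group for 34 members but for 18.8% of genes. Low library 61 was the lowest for 22 members and 27.0% of genes. Libraries 65 to 67 had the highest sums of 7 striatum markers in High (945 to 1567, against 208 to 466 in libraries 68 to 72), and their summed member level was 1373 to 1654, against 1794 to 2190 in the other 5. The 6 neuron markers were all present, with sums of 1301 to 2173, while the 6 choroid plexus markers summed to 3.75 to 72.6 with the maximum in library 49. The part of these marker levels in any result was not tested. In bulk tissue, fewer cells of one type and less RNA per cell cannot be told apart.

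**Figure D1:**
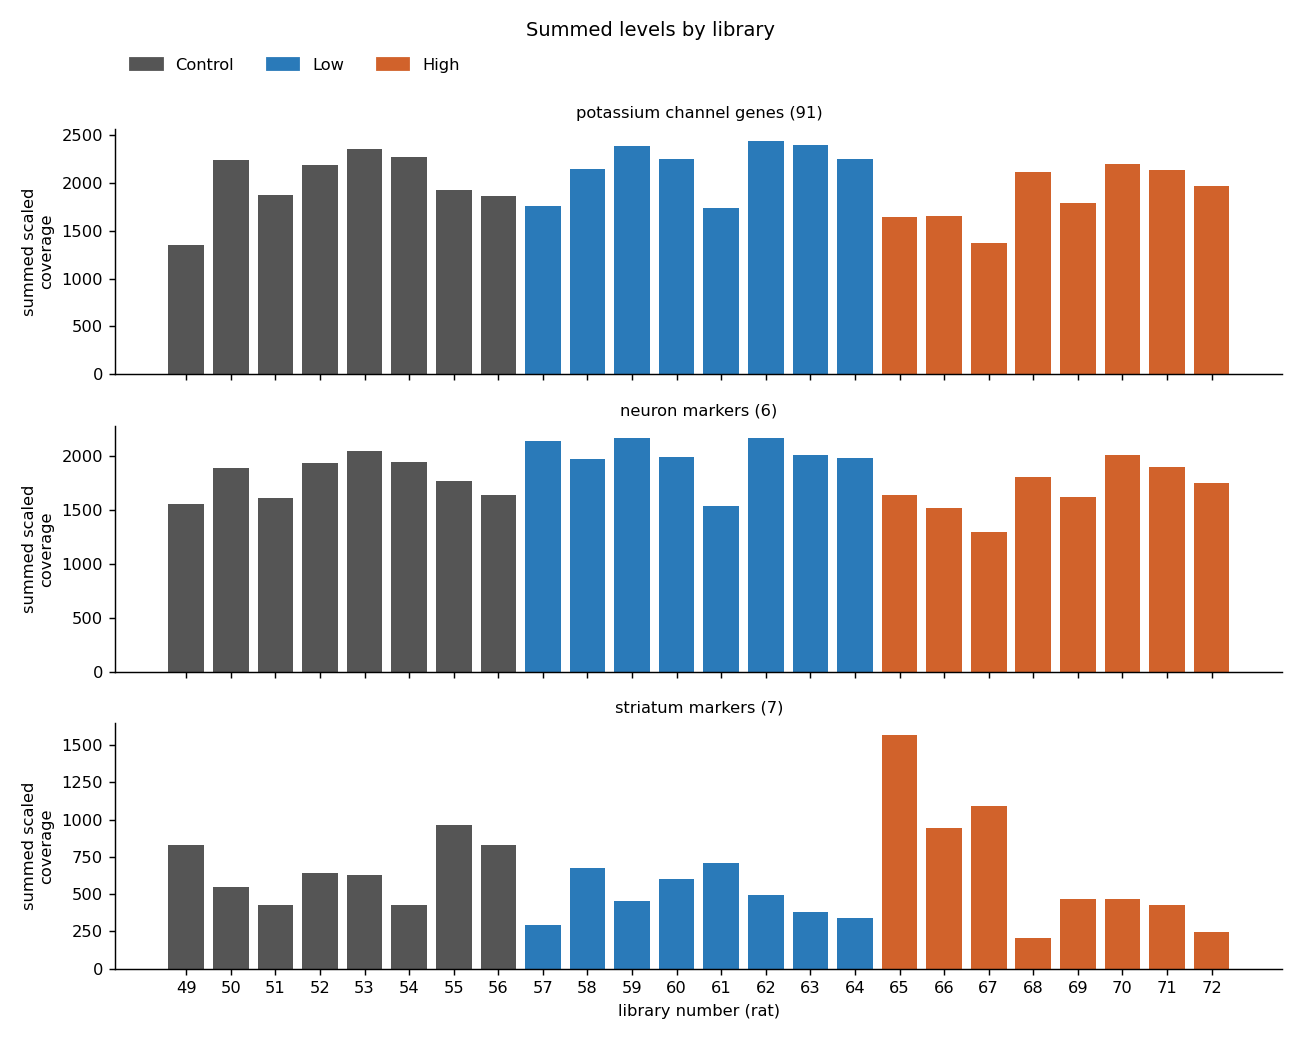
Summed scaled coverage (vertical axes) of the 91 potassium channel genes, of 6 neuron markers and of 7 striatum markers in each of the 24 libraries (horizontal axis, coloured by group). Libraries 49, 65, 66 and 67 had the 4 lowest sums of potassium channel genes, and libraries 65 and 67 had the 2 highest sums of striatum markers.

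The levels spanned a wide range, and the first 10 members carried 41.3% of the summed coverage. Kcnab2, a cytoplasmic beta subunit of Kv1 channels, was far above the others, with a median of 204 for Control rats (88.4 to 245), 228 for Low rats (146 to 263) and 192 for High rats (107 to 238). Next came Kcnmb4, the BK beta subunit of neurons, with a mean over all rats of 81.7, and Kcnip3 (77.8), a calcium-binding KChIP protein that modulates Kv4 channels. Kcnh3, a channel of the ELK type, had a mean of 73.4. Of the inward rectifiers, Kcnj9 (72.7), a G-protein-gated GIRK subunit, Kcnj4 (68.4) and the astrocytic Kcnj10 (61.2) were the highest. Kcnk1, a two-pore-domain channel, had a mean of 60.1. Auxiliary subunits thus took the first 3 places by mean scaled coverage.

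The classes held unequal shares of the coverage. The 3 Kv beta genes made up 13.9% of the summed level of all members, the 14 two-pore-domain genes 10.1% and the 4 Kv3 genes 9.73%. The 10 Kir genes outside the GIRK group made up 9.18%, the 4 KChIP genes 8.60% and the 8 Kv1 alpha genes 7.99%. Kv4 channels, the partners of the KChIP proteins, made up 1.1% with Kcnd3 and Kcnd1 alone, since Kcnd2 was not analysed here. The pore-forming BK gene Kcnma1 had a mean of 3.54 by coverage, far under its beta subunit Kcnmb4. This value depends on the column, as described below, and so do those of other members such as Kcnip2. The ranks and shares given here are those of coverage. The 5 KCNE genes, small single-pass subunits, together made up only 0.456%.

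**Figure D2:**
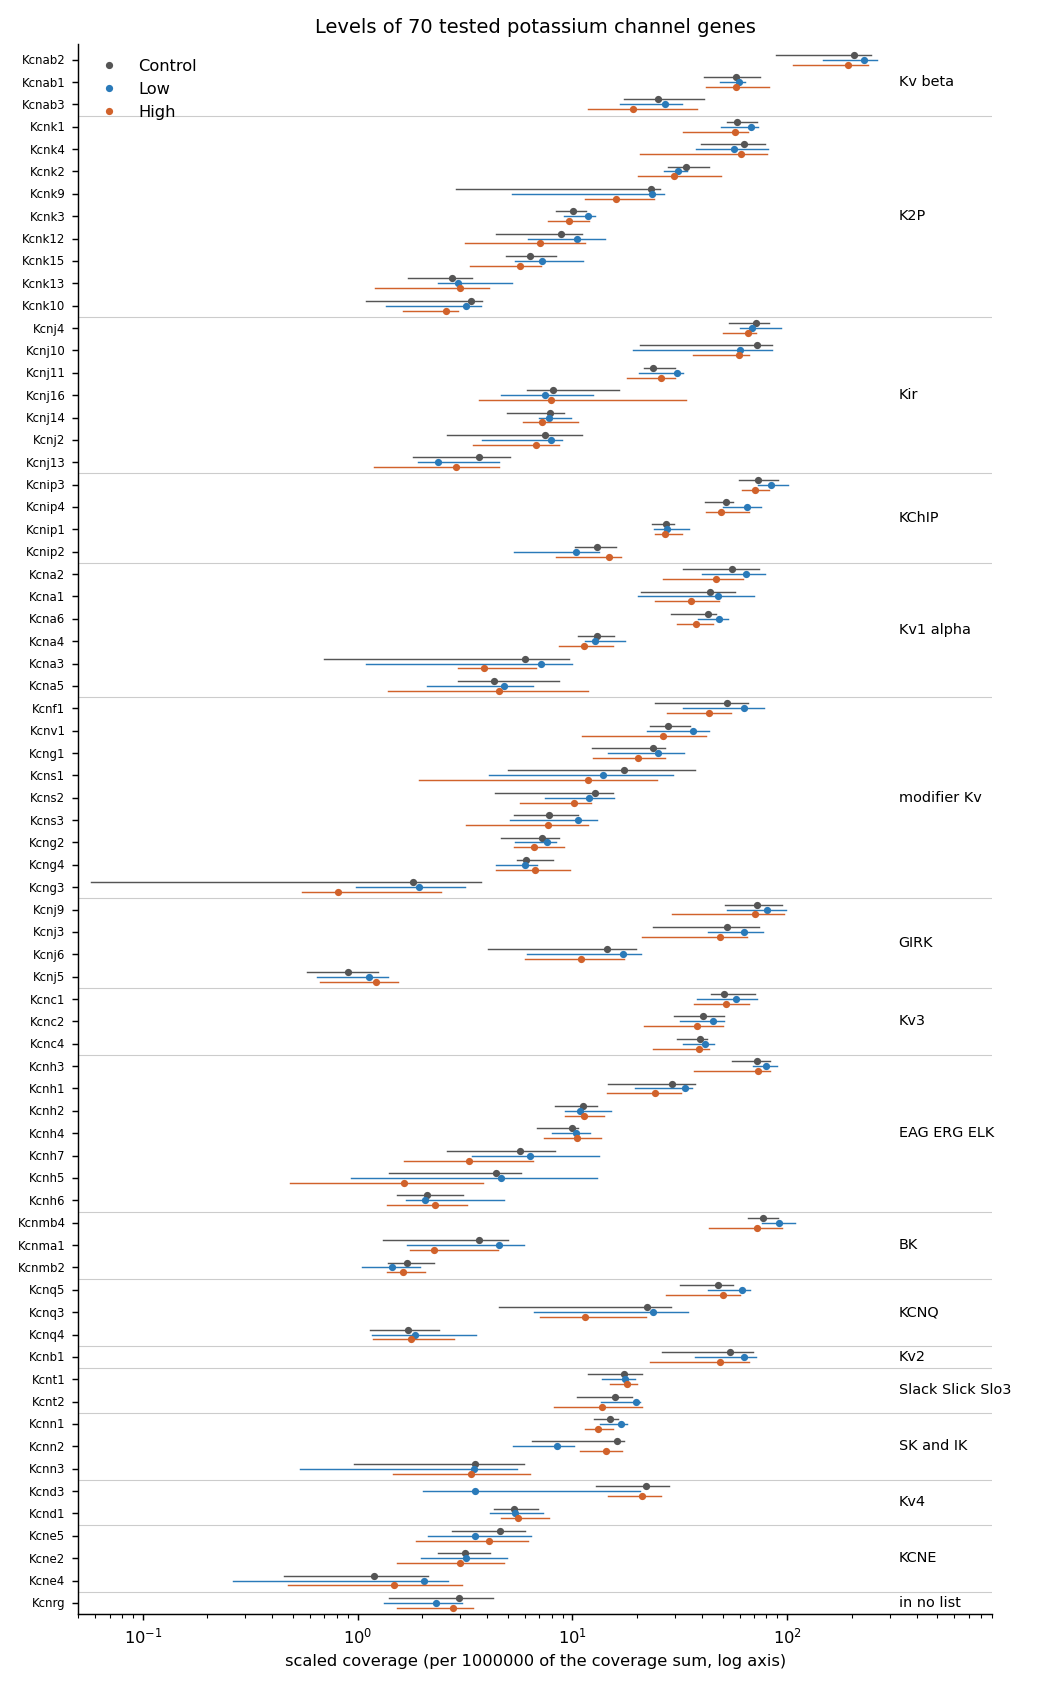
Scaled coverage (horizontal log axis) of 70 tested members, arranged by class, with the median (point) and the range from lowest to highest (line) over 8 rats of each group. Kcnab2 lies at the top of the scale, and for nearly every member the 3 ranges overlap. The Low median of Kcnd3 lies far left of the other 2.

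Neighbouring genes did not always have like levels. In the positions of the tables, Kcna1 and Kcna6 lie 61.4 kb apart on chromosome 4 on the same strand and both had a mean of 41.5. On chromosome 2, Kcna3, Kcna2 and Kcna10 follow one another on 1 strand with gaps of 69.2 and 68.1 kb, yet their means were 5.69, 54.1 and 0.00818. Kcnj9 and Kcnj10 lie 12.8 kb apart on chromosome 13 on opposite strands and had means of 72.7 and 61.2. The positions run to 282724300 on chromosome 1, beyond the end of that chromosome in mRatBN7.2, the build named in the submitters' processing notes, so the build of the positions is not known. On the same strand, 7 members overlap another gene in these positions (Kcna3, Kcnh3, Kcnh7, Kcnh8, Kcnip3, Kcnk9 and Kcnq5), and reads shared with the overlapping gene make their values uncertain.

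Variation among the Control rats also differed between members. The coefficient of variation of scaled coverage had a median of 23.9% over the 72 tested members and of 16.9% over all 15644 genes. It was lowest for Kcnip1 (8.87%), Kcnip4 (9.94%) and Kcnn1 (10.3%). The highest values were those of Kcng3 (62.7%) and Kcns1 (60.9%), both modifier subunits that do not form channels on their own, and of Kcna3 (48.6%).

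The sequences before the start sites were taken from RefSeq (GRCr8), which held 61 of the 91 members in the promoter table. Over the 250 bases before the start, the median G+C content was 59.6% for the 61 members and 51.2% for all 33469 promoters, with medians of 11 and 5 CG pairs. The GC box GGGCGG, searched on both strands, was present in 47.5% of member promoters and in 30.5% of all promoters. TATAAA was found on either strand in 2 members (3.28%, against 12.9% of all), and TGACGTCA, which reads the same on both strands, in 0 members (against 1.59%). These motifs do not overlap one another. Shown are the promoters of Kcnd3, which had the largest difference between groups, and of Kcnh5 and Kcnh7, a pair of EAG and ERG channels that were higher in Low than in High. Capitals mark each GGGCGG or its reverse complement. They lie at chr2:195626066-195626315 on the plus strand, at chr6:99643857-99644106 on the minus strand and at chr3:68230672-68230921 on the minus strand.
Kcnd3: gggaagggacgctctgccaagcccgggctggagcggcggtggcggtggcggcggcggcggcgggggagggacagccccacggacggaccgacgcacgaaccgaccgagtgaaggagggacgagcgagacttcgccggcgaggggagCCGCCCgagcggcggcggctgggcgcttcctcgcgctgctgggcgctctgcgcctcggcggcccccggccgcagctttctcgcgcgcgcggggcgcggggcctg
Kcnh5: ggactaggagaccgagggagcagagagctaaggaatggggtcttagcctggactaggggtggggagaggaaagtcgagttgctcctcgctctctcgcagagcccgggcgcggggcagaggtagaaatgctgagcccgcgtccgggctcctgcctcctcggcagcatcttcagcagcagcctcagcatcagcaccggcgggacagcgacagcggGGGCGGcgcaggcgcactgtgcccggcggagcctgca
Kcnh7: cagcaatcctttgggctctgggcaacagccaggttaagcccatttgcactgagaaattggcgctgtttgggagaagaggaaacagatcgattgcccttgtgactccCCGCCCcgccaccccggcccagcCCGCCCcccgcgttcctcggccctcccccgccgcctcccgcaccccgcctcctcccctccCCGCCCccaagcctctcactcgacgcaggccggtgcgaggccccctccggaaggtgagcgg

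The Kcnd3 window holds 43 CG pairs and 1 GC box, that of Kcnh5 20 CG pairs and 1 GC box, and that of Kcnh7 20 CG pairs and 3 GC boxes. None of the 3 contains TATAAA or TGACGTCA. A match in these letters is a description and not a measured site.

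Low rats were compared with Control rats to ask whether the lower aerosol concentration changed the RNA of these channels. In limma, 1 member rose in Low (Kcnip4) and 2 fell (Kcnd3 and Kcnn2), at a Benjamini-Hochberg adjusted p under 0.05 over all genes. Across the 15644 genes, 1.23% were called higher and 4.88% lower, so 3 of 72 members is a share not above the background of 6.11%. For 53 of the 72 members the log2 difference was positive, against 66.5% of all genes, with a median of 0.11 for members and 0.06 for all genes. Without Control library 49 it was positive for 41 and negative for 31 members, with a median of 0.0378, and with median-of-ratios scaling the median was 0.0548. By coverage, 0 members had groups that did not overlap, whereas 1.44% of all genes were lower and 0.0831% higher in Low without overlap.

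Kcnd3 encodes a pore-forming subunit of the Kv4 channels that carry the transient A-type current. Control rats had scaled coverage of 12.8 to 28.2 (median 22.04), Low rats of 2.02 to 20.5 (median 3.54) and High rats of 14.7 to 25.7 (median 21.04). The Low rats fell into separate sets: libraries 57 to 62 lay at 2.02 to 3.80, below every Control and High rat, while libraries 63 and 64 lay at 19.1 and 20.5, within the Control range. In limma the log2 difference between Low and Control was -1.84 (SE 0.32, adjusted p = 0.000419), and between Low and High it was -1.83 (SE 0.32, adjusted p = 0.000437). Without libraries 56 to 62, a set chosen with earlier results known whose removal leaves 2 Low rats, the difference from Control was -0.03. With those libraries as a covariate it was -0.98, and neither value passed. An exact Wilcoxon rank-sum test gave an adjusted p of 0.0829, and it called 0 of the 72 members between Low and Control. Over all 15644 genes it called 372.

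Kcnd3 was the only one of the 72 members for which libraries 57 to 62 lay below all 18 others, a set chosen after the Kcnd3 values were seen. Of all 15644 genes, 118 (0.754%) showed this and 11 (0.0703%) the opposite. The other Kv4 gene, Kcnd1, ranged from 4.32 to 6.94 in Control, from 4.13 to 7.31 in Low and from 4.63 to 7.78 in High, with medians of 5.35, 5.42 and 5.59. Its ranges overlapped almost entirely, and its log2 difference between Low and Control was 0.00.

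The KChIP proteins bind to the intracellular end of Kv4 channels, and their 4 genes differed from one another. Kcnip4 had 41.4 to 56.1 in Control rats (median 51.98), 50.3 to 75.8 in Low rats (median 65.05) and 41.8 to 66.6 in High rats (median 49.3). The ranges overlapped, with 7 of 8 Low rats above the highest Control rat. Its log2 difference from Control was 0.36 (SE 0.10, adjusted p = 0.0237). In limma the call was lost with no scaling (adjusted p = 0.493), with median-of-ratios scaling (0.0593), without library 51 (0.0600) or 57 (0.0547), and with libraries 56 to 62 as a covariate (0.243) or left out (0.433). Kcnip2 had 10.3 to 15.96 in Control (median 13.02) and 5.32 to 13.2 in Low (median 10.4), a log2 difference of -0.47 that did not pass (adjusted p = 0.120). Without libraries 56 to 62 it was called, with a difference of -1.01 (adjusted p = 0.0366 in limma). Kcnip1 had medians of 27.3 in Control and 27.7 in Low.

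Kcnn2 encodes an SK channel, which is opened by calcium and shapes the afterhyperpolarization. Control rats lay at 6.51 to 17.4 (median 16.2), Low rats at 5.27 to 10.2 (median 8.51) and High rats at 10.8 to 17.1 (median 14.4). All Low rats were below all High rats, and below 7 of 8 Control rats. Control library 56 (6.51) lay within the Low range. The log2 difference from Control was -0.68 (SE 0.15, adjusted p = 0.00553). With libraries 56 to 62 as a covariate it was -0.35 and was not called (limma, adjusted p = 0.518). Without those libraries, which leaves 2 Low rats, it was -0.69 and was called (limma, adjusted p = 0.0250). Low libraries 63 and 64 lay at 9.01 and 9.39, and libraries 57 to 62 at 5.27 to 10.2.

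These calls were also examined in the FPKM column. FPKM was multiplied by a base total of the library, taken from its highest ratio of coverage to FPKM. The product was divided by the coverage sum of the library, which puts it on the scale of scaled coverage. For 43 of the 72 tested members the median ratio of this depth to scaled coverage was at most 1.1 in all 3 groups. For 4 members its ratio to coverage was more than 1.5 times larger in Low than in Control, and for 2 it was smaller by as much. Kcnd3 kept its pattern, with 2.55 to 20.6 in Low (median 5.57) and 12.8 to 29.7 in Control (median 22.3), a log2 difference of -1.55 (limma, adjusted p = 0.000354). Kcnn2 did not, with group medians of 21.5 (Control), 21.2 (Low) and 20.003 (High) and a log2 difference from Control of 0.02. Kcnip4 had medians of 84.1 in Control and 79.6 in Low, a difference of -0.08. The calls of Kcnn2 and Kcnip4 thus depend on which deposited column is read, and Kcnd3 was called in both.

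Other members showed the same dependence. Kcnma1, the pore of the BK channel, had a median depth from FPKM of 38.8 in Low (14.4 to 50.9), against 4.54 in Control and 2.63 in High, while its scaled coverage had medians of 4.56, 3.68 and 2.28. Kcnt1, a sodium-activated channel, had a median of 51.1 in Low and 24.7 in Control by FPKM, but 17.6 and 17.4 by coverage. For Kcnip2 the depth from FPKM was higher in Low (median 39.2) than in Control (27.9), opposite to its coverage. Kcnh5, an EAG channel, parted in Control instead, where the median ratio of depth from FPKM to coverage was 2.87, against 1 in Low and High. Its medians by FPKM were 13.9 (Control), 4.66 (Low) and 1.98 (High), so that Low was below Control by a log2 difference of -0.95 (limma, adjusted p = 0.235). Kcnj12, which was not tested because of its low coverage, had median depths from FPKM of 12.1 (Control), 14.5 (Low) and 11.3 (High). Its median ratio of this depth to coverage was 24.9, 26.2 and 21.5 in these groups. What makes the columns part was not tested.

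**Figure D3:**
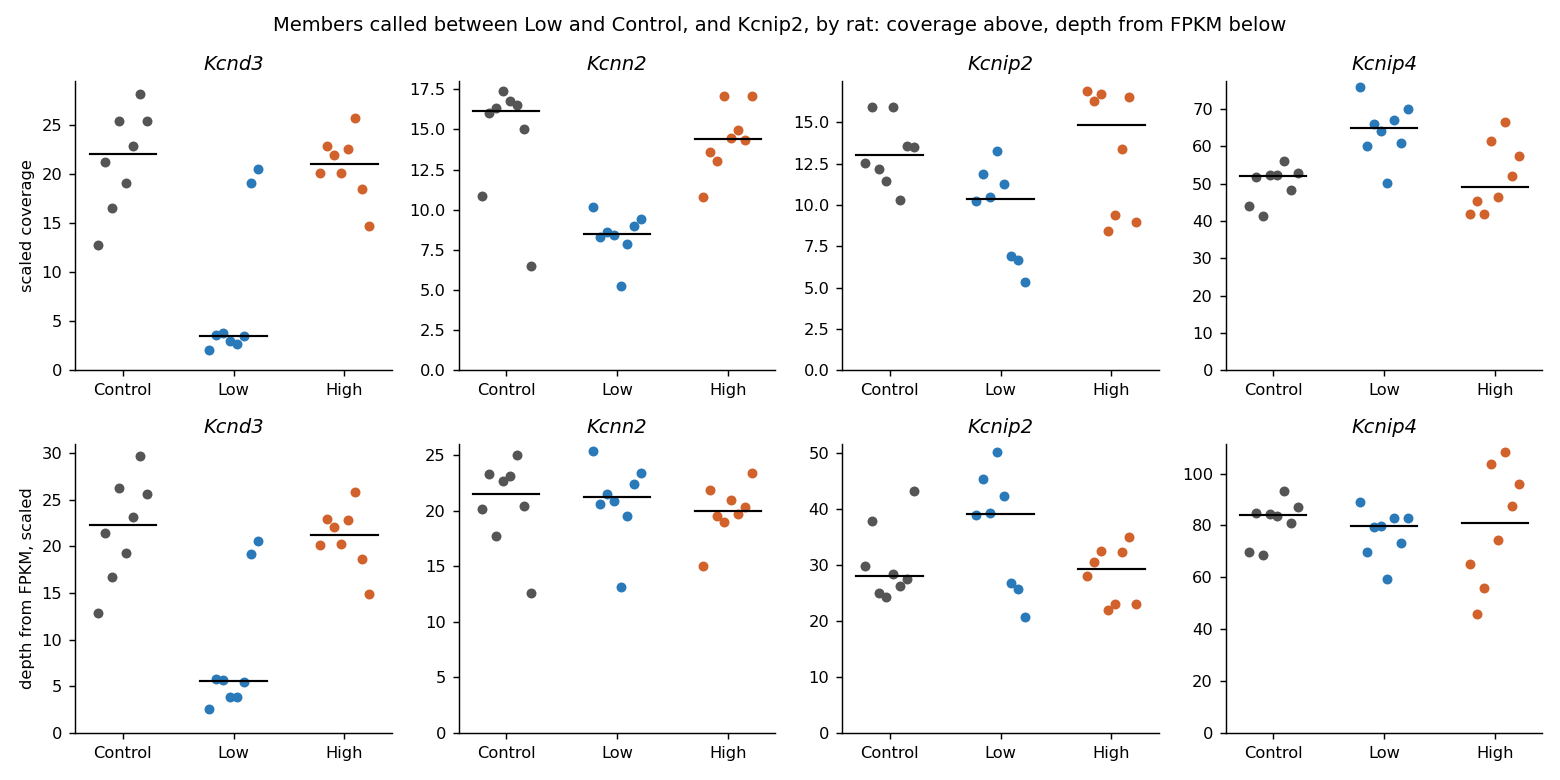
Scaled coverage (upper row) and depth from FPKM on the same scale (lower row) of Kcnd3, Kcnn2, Kcnip2 and Kcnip4 in each rat, with 8 points per group and a bar at the median. Kcnd3 is low in 6 of 8 Low rats in both rows, whereas the lower Kcnn2 and the higher Kcnip4 of Low are seen in the upper row only.

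High rats were compared with Control rats to ask the same question of the higher concentration. Limma called 0 members and 0 genes of any kind (0.0% in each direction). At an unadjusted p under 0.05, 3 members had lower values and 0 had higher ones (1.55% and 0.563% of all genes). The exact Wilcoxon test called 0 members and 0 genes as well, with 7 members and 887 of 15644 genes at an unadjusted p under 0.05. Log2 differences were negative for 56 of 72 members and positive for 16, against 36.0% of all genes with a positive value. The median was -0.09 for members and -0.03 for all genes. This direction turned with no scaling, where 48 members were positive and 24 negative (median 0.0835, against 0.14 for all genes), and without libraries 65 to 67 the members were split into 36 and 36 (median -0.0027). Leaving out library 49 or library 67 alone gave member medians of -0.14 and -0.0554. Groups that did not overlap were found for 0 members and, in the higher direction, for 0.00639% of all genes.

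The 3 members with an unadjusted p under 0.05 were Kcnh5, Kcnh7 and Kcnq3. Kcnh5, an EAG channel, had 1.40 to 5.79 in Control (median 4.39) and 0.486 to 3.85 in High (median 1.65), a log2 difference of -0.89 (SE 0.30, adjusted p = 0.999 in limma), and by the depth from FPKM the difference was -1.56. Kcnh7, an ERG channel, had 2.60 to 8.34 in Control (median 5.68) and 1.64 to 6.59 in High (median 3.29), with a difference of -0.59 (SE 0.23). Kcnq3, a KCNQ channel of the M-current, had 4.54 to 28.7 in Control (median 22.2) and 7.06 to 22.01 in High (median 11.4), with a difference of -0.64 (SE 0.30). The groups overlapped for each of them.

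The outcome moved with the libraries that stand apart. Without libraries 49 and 57, 4 members were called lower in High, namely Kcnq3 (-0.90), Kcnh5 (-1.03), Kcnma1 (-0.51) and Kcnk10 (-0.36), with adjusted p of 0.00869, 0.0233, 0.0411 and 0.0419 in limma. Genes called among all 15644 then numbered 7 higher and 383 lower, and without library 49 alone 0 members and 0 genes were called. By coverage in High, libraries 65 to 67 were the 3 lowest for Kcnh5 (0.486 to 1.11, against 1.63 to 3.85 in libraries 68 to 72) and for Kcnh7 (1.64 to 2.82, against 3.19 to 6.59), the same libraries that held the most striatum marker RNA. Libraries 66 and 67 also had the lowest neuron marker sums of all libraries (1521 and 1301) and the highest microglia marker sums (265 and 271). Library 65 had 1639 and 213. The part of these markers was not tested. By the depth from FPKM, Kcnh5 in library 66 was 7.70, above all High rats but library 70 (16.2). Without libraries 65 to 67, the log2 differences from Control were -0.56 for Kcnh5, -0.33 for Kcnh7 and -0.45 for Kcnq3.

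**Figure D4:**
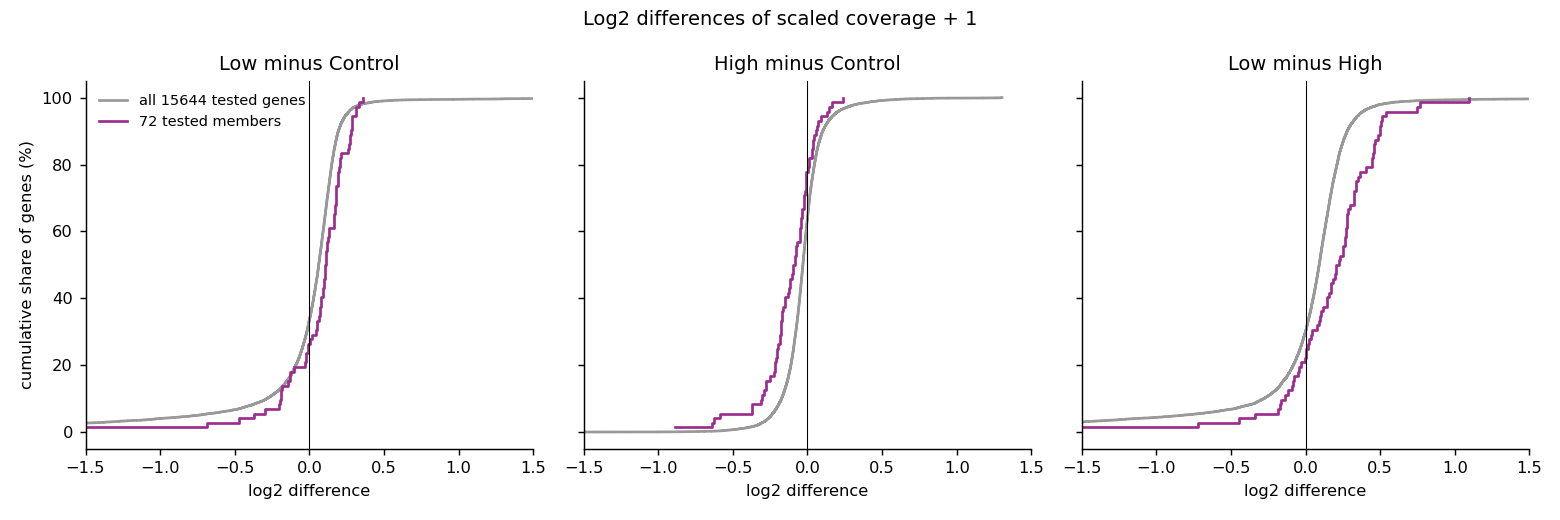
Cumulative share (vertical axis, percent) of the 72 tested members and of all 15644 tested genes by log2 difference (horizontal axis, from -1.5 to 1.5) in the 3 comparisons. The member curve lies to the right of all genes over most of the range for Low minus High (medians 0.21 and 0.09) and to the left for High minus Control (medians -0.09 and -0.03).

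The exposed groups were also compared with each other. Between Low and High, limma called 6 members higher in Low (Kcnh5, Kcnh7, Kcnt2, Kcnip4, Kcnn1 and Kcnip3) and 2 lower (Kcnd3 and Kcnn2), of 72, beside 5.3% of all genes called higher and 6.39% lower. The log2 difference was positive for 56 of 72 members and for 69.9% of all genes, with medians of 0.21 and 0.09. With no scaling it was positive for 38 and negative for 34 members (median 0.0184, against -0.11 for all genes). The member median was 0.13 with median-of-ratios scaling and 0.10 without libraries 65 to 67. Kcnn2 alone had groups that did not overlap, which held for 2.0% of all genes in the lower direction and for 0.262% in the higher one. Low and High share no rats, but this comparison shares its Low rats with the first one.

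By value, Kcnh5 and Kcnh7 had the 2 largest positive differences, whereas the related Kcnh1 (EAG) and Kcnh2 (ERG) differed by 0.36 and 0.0043 in log2 and were not called. Kcnh5 lay at 0.933 to 13.05 in Low (median 4.66), against the High values given above, a log2 difference of 1.1 (SE 0.30, adjusted p = 0.0179). Kcnh7 lay at 3.40 to 13.3 (median 6.37), a difference of 0.76 (SE 0.23, adjusted p = 0.0299). Both ranges overlapped with those of High. Against Control the same Low rats differed by 0.21 and 0.18 in log2, and neither passed. For Kcnh5 this direction turned in the depth from FPKM, as given above.

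The other members called higher in Low differed less. Low rats had 13.6 to 20.6 (median 19.7) for Kcnt2, a sodium-activated channel like Kcnt1, and High rats had 8.17 to 21.0 (median 13.7), a log2 difference of 0.46 (SE 0.15, adjusted p = 0.0456). Kcnn1, an SK channel like Kcnn2, lay at 13.4 to 18.0 for Low rats (median 16.9) and at 11.4 to 15.4 for High rats (median 13.2), a difference of 0.28 (SE 0.08, adjusted p = 0.0170). Thus 2 genes of the SK class were called in opposite directions by coverage. Kcnip3 lay at 72.7 to 101 for Low rats (median 84.2) and at 61.7 to 82.4 for High rats (median 70.6), a difference of 0.25 (SE 0.08, adjusted p = 0.0427). The differences of Kcnip4 and Kcnn2 were 0.32 and -0.72 (adjusted p = 0.0286 and 0.00252).

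**Figure D5:**
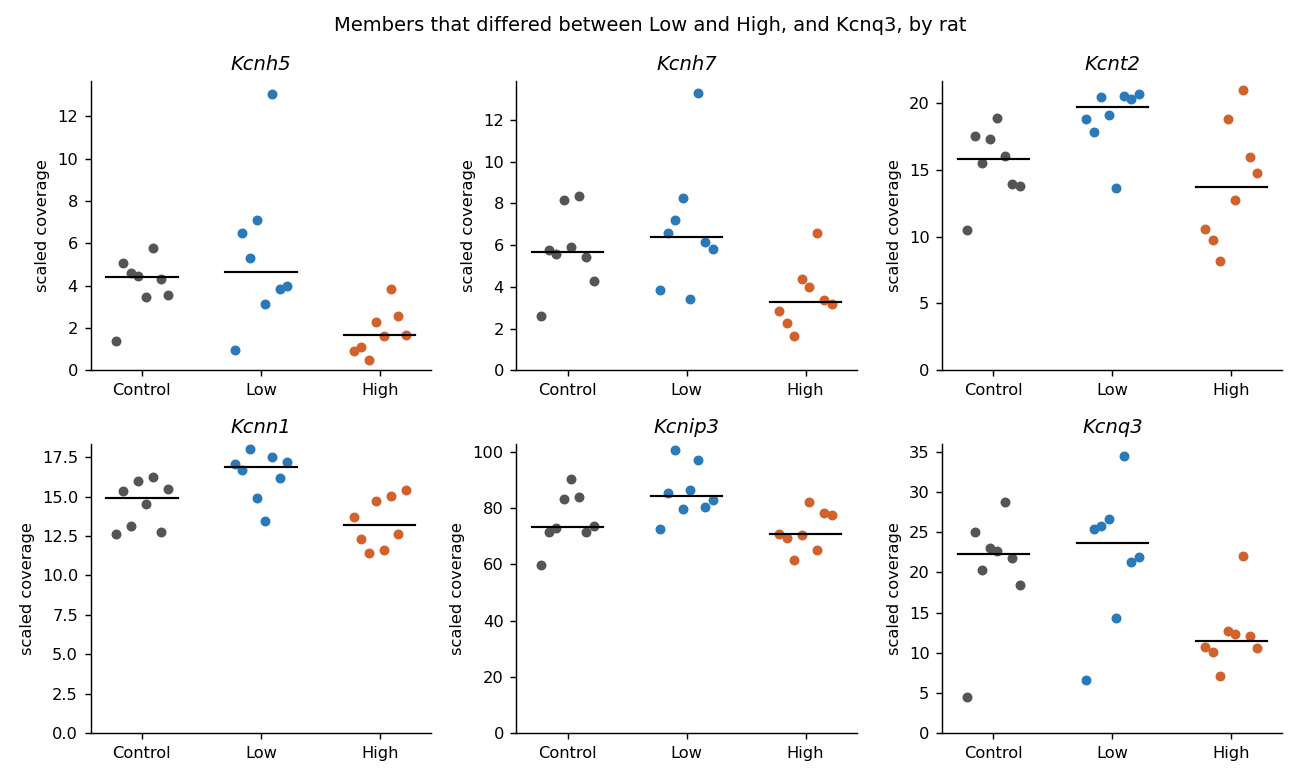
Scaled coverage (vertical axes, from 0) of Kcnh5, Kcnh7, Kcnt2, Kcnn1, Kcnip3 and Kcnq3 in each rat, with 8 points per group and a bar at the median. Low medians are above High medians for all 6, the groups overlap, and Kcnq3 (log2 difference 0.75, adjusted p = 0.106) was not called.

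These calls moved with single libraries, and with each rat left out in turn 4 to 14 members were called. Without library 61, with 14 members called, 1525 of all genes were higher and 954 lower. Without library 59, with 4 members called, 396 genes were higher and 886 lower. Without libraries 65 to 67, none of the 6 members higher in Low was called, with log2 differences of 0.77 for Kcnh5, 0.50 for Kcnh7 and 0.19 for Kcnt2, while Kcnd3 (-1.79) and Kcnn2 (-0.84) still were. Genes called in that setting numbered 299 higher and 635 lower. Without libraries 49 and 57, 21 members were called higher and 2 lower, beside 3342 and 1165 of all 15644 genes. In the depth from FPKM, Kcnh7, Kcnip3 and Kcnt2 were called higher, and Kcnh5 (0.61), Kcnn1 (0.05) and Kcnip4 (0.00) were not.

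The classes were also described by their sums, with no test. Summed scaled coverage over all 91 members was 2007 ± 327 for Control, 2169.8 ± 278 for Low and 1858 ± 289.9 for High rats (SD, n = 8 each). The KChIP genes summed to 166 ± 13.5, 188 ± 13.2 and 165 ± 8.17. The Kv1 alpha genes summed to 161 ± 32.0, 180 ± 36.4 and 141 ± 19.5, and the modifier subunits to 152 ± 26.2, 173 ± 23.3 and 135 ± 30.1. For all members together and for the modifier subunits, both exposed groups differed from Control by less than the SD of any group. All 4 Kv3 genes and all 4 KCNQ genes that were tested had positive log2 differences between Low and Control, with medians of 0.10 and 0.11, and none of these 8 was called. The difference was also positive for all 4 GIRK genes (median 0.17), for 4 of 7 other Kir genes and for 2 of 3 Kv beta genes. Over all genes it was positive for 66.5%, and 6.11% were called. Without library 49, 2 of the 4 KCNQ genes were negative (median -0.0500). For all 9 tested K2P genes the log2 difference between Low and High was positive (median 0.21), with 0 called. Over all genes 69.9% were positive and 11.7% were called. The K2P difference was positive for only 8 with median-of-ratios scaling and for 6 with no scaling (median 0.0550). The Kv4 sum was 26.9 ± 5.75 for Control, 12.7 ± 7.78 for Low and 26.7 ± 3.79 for High rats.

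Genes that work with these channels were listed as well. Over all 15644 genes, 6.11% were called between Low and Control, 0.0% between High and Control and 11.7% between Low and High. Of 13 tested partners of Kv channels, 0 were called between Low and Control or High and Control, and 1 between Low and High, the secreted Lgi1, which binds the Kv1 complex through ADAM22. It had means of 65.3 (Control), 79.5 (Low) and 62.5 (High), and the log2 difference between Low and High was 0.34 (adjusted p = 0.0113 in limma). The Kv4 partners Dpp6 and Dpp10, which speed the gating of Kv4 channels, had log2 differences between Low and Control of 0.08 and 0.22 and were not called. Of 13 tested partners of other potassium channels, 5 genes of the HCN list and 10 genes of potassium transport, 0 were called between Low and Control or High and Control. Between Low and High, Slc12a2, a sodium, potassium and chloride cotransporter, was called higher in Low (0.34, adjusted p = 0.0429), and 0 of the other 27 were called.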

How the data were processed

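Frontal cortex RNA of 24 rats was measured by RNA-Seq. The submitters' processing notes name FastQC, Trimmomatic, TopHat2, StringTie and the build mRatBN7.2, and for these tools the sources used here give no versions or options. The authors deposited 1 StringTie table per rat. Its deposited coverage is the mean read depth per base, a signal on which depth was left as it was. Per kilobase and per unit of a library total, the authors also gave FPKM. The deposited TPM sums to 1000000 over reference genes in Low tables, while in Control and High tables assembled loci share that column, so it is only a score there. Read counts are not in the tables used, so no count test was run, counting error is unknown and no interval for it is given. The base total, the highest ratio of coverage to FPKM in a library, ran from 5.05 to 7.86 gigabases (Control), 3.34 to 6.42 (Low) and 4.95 to 7.65 (High). Coverage sums showed no like shift, since both the lowest and the highest sum of all libraries were in Low. What lowers the base total in Low was not tested, and it is not read here as the number of bases sequenced.

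Coverage was summed per gene identifier, divided by its sum over the 32883 reference genes and rescaled to 1000000. Those with a mean of 1 or more were tested with limma 3.58.1 (trend, robust) in R 4.3.3 on log2(value + 1), all 3 groups in 1 fit, two-sided, with Benjamini-Hochberg adjustment over all 15644 genes and a threshold of 0.05. This scale understates the change of low genes. Exact Wilcoxon rank-sum tests used all splits of 16 rats. Both were tested on simulated data. Tables and figures were made with matplotlib 3.10.9, statsmodels 0.14.6, pandas 2.3.3, scipy 1.17.1 and numpy 2.4.6 in Python 3.11.15.

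The members, the class, partner and marker lists, the tests and the first alternatives were chosen with earlier results of these data known. Members named in the text are, for each letter, the highest tested member, the 10 highest in all, those past the threshold, the 3 with the smallest p in each comparison and ends of ranges. Members named outside this rule, such as Kcnip2, Kcnma1, Kcnd1 and Kcnk10, were chosen after their values were seen. Values of some members are not reported here, while counts and sums include them. Alternatives are described in the closing section. The labels do not say that libraries of a group come from separate exposures, so p-values measure the spread between these rats.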

Additional observations from a re-analysis of the deposited data

Results flagged for a closer look

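In 75 sets of 8 rats (24 named members and the summed level, in 3 groups), 7 single values stood apart from the other 7 of their group by Dixon's test at the 95% level, where chance gives about 1 in 20. Control library 49 was low for Kcnj10 (20.7, others 62.6 to 84.9) and Kcnq3 (4.54, others 18.5 to 28.7). Low library 57 was low for Kcnf1 (32.6, others 56.5 to 77.6). In Low library 61, Kcnt2 was low (13.6, others 17.8 to 20.6). High library 65 was low for Kcnj10 (36.6, others 52.8 to 66.7) and Kcnrg (1.53, others 2.58 to 3.44). In High library 70, Kcnq3 was high (22.01, others 7.06 to 12.7).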

How the results depend on the processing

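No paired analysis was possible because the groups share no replicate numbers. Read counts were not used, so how far sequencing depth limits these values is unknown.

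Members called between Low and Control numbered 3. They numbered 52 (51 higher) of 67 tested in the FPKM column as deposited, where 11948 of 13816 genes were called higher and 445 lower. In TPM they numbered 10 (9 higher), beside 3178 of 15587 genes higher and 774 lower. With assembled loci added they numbered 20 (14 higher), beside 3116 of 15644 genes higher and 1450 lower. That setting lists the same coverage again for 21 to 58 members in Control, for 25 to 28 in High and for 0 in Low. Called members numbered 1 with libraries 56 to 62 as a covariate, which was Kcnip2 and none of the 3. Genes called in that setting numbered 14 higher and 347 lower. Without those libraries, called members numbered 2 (Kcnip2 and Kcnn2), beside 9 genes higher and 318 lower. The exact Wilcoxon test called 0 members and 372 genes, with 12 members and 2726 genes at an unadjusted p under 0.05. With each rat left out, 2 to 3 members were called, beside 78 to 324 genes higher and 587 to 933 lower. Of the 3 calls, 1 was higher, against 0 of 2 with median-of-ratios scaling and 2 of 4 without mitochondrial genes in the sum. Genes called with median-of-ratios scaling numbered 155 higher and 928 lower, and without mitochondrial genes in the sum 841 higher and 847 lower. Between High and Control, 0 members and 0 genes were called in every other setting tried here, each rat left out included. Without libraries 49 and 57, 4 members were called, beside 7 genes higher and 383 lower. Between Low and High the number of members called was 8 (6 higher). With no scaling it was 2 (0 higher), beside 72 genes higher and 1061 lower. In FPKM it was 54 (53 higher), beside 11909 of 13816 genes higher and 501 lower. In TPM it was 13 (12 higher), beside 2997 of 15587 genes higher and 930 lower. With assembled loci it was 26 (24 higher), beside 3728 of 15644 genes higher and 1685 lower. It was 0 with libraries 56 to 62 as a covariate (31 genes higher, 323 lower) and 1 without them (20 higher, 321 lower). The Wilcoxon test called 2 members and 1147 genes, with 25 members and 5213 genes at an unadjusted p under 0.05. Without libraries 49 and 57 the number was 23, beside 3342 genes higher and 1165 lower. Without libraries 65 to 67 it was 2, beside 299 genes higher and 635 lower. With median-of-ratios scaling it was 6 (3 higher), beside 373 genes higher and 1283 lower. With each rat left out it was 4 (without 59, 62, 65 or 67) to 14 (without 61), and 5 without 66. Genes called with each rat left out numbered 396 to 1525 higher and 876 to 1072 lower. Without scaling, the median log2 difference over all genes was -0.11 for Low against High (0.09 with scaling) and 0.14 for High against Control (-0.03 with scaling).

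Directions turned in the following cases. For Kcnn2, Low against Control was 0.48 in FPKM, 0.11 in TPM and 0.0208 in FPKM put back to depth, and Low against High was 0.46, 0.0950 and 0.0492. For Kcnip2 the corresponding values were 0.69, 0.31 and 0.22, and 0.73, 0.35 and 0.31. Kcnip4 in Low against Control was -0.0834 in FPKM put back to depth. Kcnh5 in Low against Control was -0.45 in FPKM, -0.87 in TPM, -0.95 in FPKM put back to depth, -0.39 with assembled loci added and -0.0046 without libraries 56 to 62. With assembled loci added, High against Control was 0.36 for Kcnh7 and 0.32 for Kcnq3, and Low against High was -0.28 for Kcnh5. The cause was not tested. FPKM put back to depth and the sets without libraries 49 and 57 or 65 to 67 were chosen after seeing the data.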
